A study of Mus musculus with 12 samples.

Results

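The region studied here is the stretch of mouse chromosome 9 that lies within 10 Mb of *Il18*, from 40.39 to 60.39 Mb in the mm9 build. Its members are the non-control array probes whose lower coordinate falls in that window, without the probes for *Il18*, *Apoc3*, *Apoa1*, *Apoa4*, *Apoa5* and *Zbtb16* and without probes whose name is only a coordinate range. This gave 416 probes with 330 gene names, of 55681 probes with 36163 gene names on the array. Of these, 187 lie on the centromeric side of *Il18* and 229 on the telomeric side. The window holds 563 probes in all, of which 7 were left out by gene name and 140 for their coordinate names.

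The study examined how the loss of interleukin-18 changes gene expression in brown adipose tissue (BAT). Whole BAT was taken from untreated wild type (*Il18*+/+) and interleukin-18 knockout (*Il18*-/-) mice, with 3 mice of each genotype at 6 weeks of age and 3 of each at 12 weeks of age. Total RNA of each mouse was hybridized to its own one-color array, which made 12 arrays in 4 groups. The sample labels give the strain of every group as BALB/c, whereas the methods describe male *Il18*-/- mice on a C57Bl/6 background with *Il18*+/+ littermates as controls. The number of arrays limits the precision of every value.

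Some arrays stood apart before any comparison was made. Of 59305 non-control spots on each array, 36371 were well above background on replicate 1 of *Il18*-/- at 6 weeks and 35136 on replicate 3 of *Il18*+/+ at 12 weeks, the highest counts, and 29619 on replicate 2 of *Il18*-/- at 12 weeks, the lowest. Replicate 1 of *Il18*-/- at 12 weeks also stood apart from its group by higher signals of 5 liver genes, given at the end. The arrays lay on 2 slides. Slide 1 held all *Il18*+/+ arrays and replicates 1 and 2 of *Il18*-/- at 6 weeks, and slide 2 held replicate 3 of *Il18*-/- at 6 weeks and every *Il18*-/- array of 12 weeks. At 12 weeks the genotypes therefore shared no slide, so genotype and slide cannot be told apart at that age.

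Interleukin-18 is a cytokine of the interleukin-1 family that is cut to its active form by caspase-1 and drives interferon-γ production by T cells and natural killer cells. BAT burns lipid in mitochondria to make heat, and it holds nerve fibers, vessels and leukocytes beside its adipocytes. Genes that lie near each other on a chromosome are inherited together, but they need not share a function or a regulator, and the genes around *Il18* range from mitochondrial enzymes to T cell receptor subunits and sodium channel subunits.

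All values below are log2 intensities relative to the 75th percentile of the spots well above background on the same array. The *Il18* probe itself, at chr9:50389761-50389820, read -4.92, -4.93 and -4.21 in *Il18*+/+ and -3.58, -4.50 and -4.19 in *Il18*-/- at 6 weeks. At 12 weeks it read -3.58, -4.44 and -3.56 in *Il18*+/+ and -4.13, -4.38 and -4.57 in *Il18*-/-. The genotypes overlapped at both ages and every array was well above background. The difference between genotypes was 0.60 ± 0.30 (SE) at 6 weeks (adjusted p 0.487) and -0.50 ± 0.30 at 12 weeks (adjusted p 0.296). Whether this probe lies in the deleted part of the gene is not given in the sources used here, so it checks no genotype label.

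Of the 416 members, 277 were tested because all 3 arrays of some group read them well above background, 120 centromeric and 157 telomeric, and 139 were too dim to test. At 6 weeks 18 of the 277 differed between genotypes at an adjusted p under 0.05 (0.567% of all 28748 probes tested), 8 higher in *Il18*-/- (0.379% of all) and 10 lower (0.188% of all). At 12 weeks 46 differed (8.68% of all), 5 higher (0.63% of all) and 41 lower (8.05% of all). In the region these counts are 6.50% of the tested members at 6 weeks and 16.6% at 12 weeks, and on the rest of chromosome 9 they were 4 and 90 of 1069 tested probes. The members that passed carry 17 gene names at 6 weeks and 43 at 12 weeks, and 227 of the 277 passed at neither age.

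With this scaling the median log2 difference of all tested probes was 0.11 at 6 weeks and -0.26 at 12 weeks, and that of the region was 0.07 and -0.28. The median of all probes depends on the reference. It was -0.01 and -0.03 against the 75th percentile of all spots and -0.04 and 0.01 after quantile normalization. Under other scalings the split into higher and lower changed as well. It was 18 higher and 17 lower at 6 weeks and 25 and 42 at 12 weeks against the 75th percentile of all spots, 21 and 17 and then 29 and 37 after quantile normalization, and 20 and 17 and then 31 and 39 with each array centred on its median. Over all 28748 tested probes 163 passed at 6 weeks and 2494 at 12 weeks as reported. Under these scalings, in the same order, 935, 1050 and 901 passed at 6 weeks and 5166, 4758 and 5338 at 12 weeks.

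Single arrays moved these counts. At 6 weeks 11, 11 and 9 members passed without replicate 1, 2 or 3 of *Il18*+/+ at that age. At 12 weeks 75 passed without replicate 1 of *Il18*-/- at 6 weeks, 29, 24 and 16 without replicate 1, 2 or 3 of *Il18*+/+ at 12 weeks, and 19 and 16 without replicate 2 or 3 of *Il18*-/- at 12 weeks. Without both arrays that had the most spots well above background, 16 passed at 6 weeks and 40 at 12 weeks. Without replicate 1 of *Il18*-/- at 12 weeks 18 and 34 passed.

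With slide as a block 12 members passed at 6 weeks (0.421% of all tested probes) and 3 at 12 weeks (0.0487% of all), each of them among the members that passed without the block. At 6 weeks this is the same comparison as the one within slide 1, of 3 *Il18*+/+ and 2 *Il18*-/- arrays. The shift between slides is estimated only from the *Il18*-/- arrays of 6 weeks, the group on both slides. Every value with the block that uses the 12-week arrays therefore rests on 1 array for this shift, replicate 3 of *Il18*-/- at 6 weeks. The arrays of the genotypes did not overlap for 82 members at 6 weeks (14.7% of all tested probes) and for 121 at 12 weeks (36.1% of all).

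The members that passed lay on both sides of *Il18*. On the centromeric side 12 of 120 passed at 6 weeks, 6 of them higher, and 25 at 12 weeks, 4 of them higher. On the telomeric side 6 of 157 passed at 6 weeks, 2 of them higher, and 21 at 12 weeks, 1 of them higher. The median difference was 0.06 and -0.30 on the centromeric side and 0.07 and -0.25 on the telomeric side at 6 and 12 weeks.

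In steps of 2 Mb away from *Il18*, the centromeric side had 0 of 10, 2 of 8, 4 of 48, 5 of 41 and 1 of 13 members past the threshold at 6 weeks, and 2, 2, 8, 11 and 2 at 12 weeks. The telomeric side had 3 of 43, 1 of 12, 1 of 31, 1 of 48 and 0 of 23 at 6 weeks, and 7, 2, 6, 4 and 2 at 12 weeks. The steps with 8 to 13 tested members are thinly filled, and no order along the chromosome is read from them. The step nearest to *Il18* on the centromeric side, where no member passed limma at 6 weeks, had 2 members at an unadjusted p under 0.05.

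The tested genes nearest to *Il18* varied in the size and direction of their difference. *Sdhd*, a subunit of succinate dehydrogenase 0.0149 Mb to the telomeric side, read 6.26, 6.12 and 6.09 in *Il18*+/+ and 6.29, 5.85 and 6.08 in *Il18*-/- at 6 weeks. *Pts*, an enzyme of tetrahydrobiopterin synthesis 0.0596 Mb to the centromeric side, read 1.21, 1.29 and 1.07 against 1.37, 1.03 and 1.01. Both overlapped between genotypes at both ages.

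*Timm8b*, a chaperone of mitochondrial protein import, differed by 0.28 at 6 weeks and 0.15 at 12 weeks (adjusted p 0.604 and 0.645), or -0.10 at 12 weeks with slide as a block, and *AU019823* (now *Nkapd1*), *Pih1d2*, *Ttc12* and *Zw10*, a kinetochore protein, also passed at neither age. *Bco2*, which cleaves carotenoids in mitochondria, was lower on all *Il18*-/- arrays, by -0.75 ± 0.20 (SE) at 6 weeks and -0.49 ± 0.20 at 12 weeks. It did not pass at either age (adjusted p 0.141 and 0.13) but did over both ages together (-0.62, adjusted p 0.0411), a call that ended with slide as a block (-1.04, adjusted p 0.203) and with the replicate number as a block (adjusted p 0.0593). *Dlat*, the acetyltransferase of the pyruvate dehydrogenase complex, was higher by 0.81 and 0.75 without passing (adjusted p 0.269 and 0.0992). Of the 5 nearest tested genes on each side only *Ncam1* passed at an age, at 12 weeks, and it is described below.

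Of the 277 tested members, 14 passed at both ages in the same direction (0.0939% of all tested probes), 5 of them higher in *Il18*-/- (0.0348% of all) and 9 lower (0.0591% of all). This split was 10 and 13, 15 and 14, and 12 and 13 under the 3 other scalings in the order given above. Over all 28748 tested probes the same-direction count was 27 as reported and 209, 238 and 215 under those scalings. The 14 members carry 13 gene names, with 9 probes on the centromeric and 5 on the telomeric side, and lie between 0.129 and 6.87 Mb from *Il18*. On the rest of chromosome 9 there was 1 such probe among 1069 tested. No member passed in opposite directions at the 2 ages. Without replicate 1, 2 or 3 of *Il18*+/+ at 6 weeks the count was 9, 8 and 7, without replicate 3 of *Il18*-/- at 6 weeks it was 8, and without the arrays with the most spots well above background it was 12. Among probes well above background on every array it was 7, and with overlapping probes counted once it was 12.

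With slide as a block 9 of the 14 passed at 6 weeks and 3 at 12 weeks, *Gldn*, *Scn2b* and *Fam55d*, and all 14 kept their direction at 12 weeks. For the other 11 probes the 12-week call ended with the block, though the difference stayed large in several. It went from -1.59 to -1.88 for *Rps25*, from -1.41 to -1.56 for ENSMUST00000050829, from 1.01 to 1.21 for *Amica1* and from 1.66 to 1.58 for *Ttc36*. For ENSMUST00000098784 it went from -3.15 to -3.36. It shrank from -4.08 to -2.78 for ENSMUST00000117093 and from -2.44 to -1.83 for *Ppcdc*. It also shrank from -1.45 to -1.08 for *Abcg4*, from -1.85 to -1.46 for *Tmem25* and from 1.11 to 0.80 for *2900052N01Rik*.

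*Gldn* encodes gliomedin, a protein of Schwann cell microvilli that gathers sodium channels at the nodes of Ranvier. At 6 weeks its probe read -1.56, -2.48 and -2.65 in *Il18*+/+ and 1.35, 0.65 and 1.08 in *Il18*-/-. At 12 weeks it read -4.18, -4.77 and -3.75 in *Il18*+/+ and 1.78, 1.25 and 1.40 in *Il18*-/-. The genotypes did not overlap at either age, with *Il18*-/- higher, and the *Il18*+/+ arrays of 12 weeks were the lowest of all. The increase was 9.54-fold at 6 weeks (log2 3.25 ± 0.32, SE, adjusted p 0.000415) and 52.2-fold at 12 weeks (log2 5.71 ± 0.32, adjusted p 3.41e-06). The adjusted p with slide as a block was 0.0022 and 0.00839.

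*Scn2b* encodes an auxiliary β subunit of voltage-gated sodium channels. Its probe read -8.89, -8.92 and -8.68 in *Il18*+/+ and -4.62, -4.81 and -5.28 in *Il18*-/- at 6 weeks, and -7.44, -7.32 and -6.67 against -4.73, -4.95 and -5.18 at 12 weeks. No *Il18*+/+ array was well above background and all *Il18*-/- arrays were, without overlap. Where a group has no array well above background, a fold is a lower bound, taken from the mean of the bright group against the higher of the lowest signal that counted as well above background and the signal of the probe itself. The adjusted p of such a probe compares with signals that were not well above background. *Scn2b* was at least 3.67-fold higher in *Il18*-/- at 6 weeks (adjusted p 7.13e-06) and at least 3.28-fold higher at 12 weeks (adjusted p 0.000772). The adjusted p with slide as a block was 1.37e-05 and 0.0305.

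*Amica1* (now *Jaml*) encodes a junctional adhesion molecule of leukocytes and lies 22.4 kb from *Scn2b* with no tested member between them. It read -5.28, -5.03 and -4.70 in *Il18*+/+ and -2.22, -2.88 and -2.75 in *Il18*-/- at 6 weeks, and -4.20, -4.61 and -3.43 against -3.11, -2.83 and -3.27 at 12 weeks. All *Il18*-/- arrays were higher at both ages. The increase was 5.22-fold at 6 weeks (log2 2.38 ± 0.29, SE, adjusted p 0.0021) and 2.02-fold at 12 weeks (log2 1.01 ± 0.29, adjusted p 0.0481). The call at 12 weeks held without replicate 1 of *Il18*-/- at 6 weeks or replicate 3 of *Il18*+/+ at 12 weeks, and ended on leaving out any other single array, with an adjusted p up to 0.155.

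*2900052N01Rik*, a non-coding RNA, read -5.17, -4.77 and -5.16 in *Il18*+/+ and -3.30, -3.73 and -3.20 in *Il18*-/- at 6 weeks. At 12 weeks it read -5.58, -5.71 and -5.17 against -4.21, -4.59 and -4.32. The genotypes did not overlap at either age. The increase was 3.08-fold at 6 weeks (log2 1.62 ± 0.21, SE, adjusted p 0.00298) and 2.16-fold at 12 weeks (log2 1.11 ± 0.21, adjusted p 0.0119). After normexp background correction the difference at 12 weeks was 0.55 and no longer passed (adjusted p 0.0852).

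*Ttc36* encodes a tetratricopeptide repeat protein. It read -6.36, -6.29 and -6.36 in *Il18*+/+ and -4.62, -5.05 and -4.75 in *Il18*-/- at 6 weeks. At 12 weeks it read -6.05, -6.53 and -5.73, with 2 of these 3 arrays well above background, against -4.97, -4.36 and -3.98. It was higher on every *Il18*-/- array, by 1.53 ± 0.26 (SE) at 6 weeks (adjusted p 0.0195) and 1.66 ± 0.26 at 12 weeks (adjusted p 0.00547). At 6 weeks the call ended without replicate 1, 2 or 3 of *Il18*+/+ (adjusted p 0.0818, 0.0785 and 0.0941) or replicate 1 or 3 of *Il18*-/- (adjusted p 0.0533 and 0.0565), and the difference was 0.64 after normexp background correction (adjusted p 0.141).

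*Tmem25*, which encodes a membrane protein with immunoglobulin domains, lies 8.86 kb from *Ttc36* with no tested member between them and went the other way. It read -1.35, -0.95 and -1.32 in *Il18*+/+ and -2.20, -2.50 and -2.74 in *Il18*-/- at 6 weeks, and -1.70, -1.34 and -0.97 against -3.32, -3.10 and -3.13 at 12 weeks. All *Il18*-/- arrays were lower. The difference was -1.27 ± 0.22 (SE) at 6 weeks (adjusted p 0.0195) and -1.85 ± 0.22 at 12 weeks (adjusted p 0.00135). The 6-week call ended without replicate 1, 2 or 3 of *Il18*+/+ (adjusted p 0.0634, 0.107 and 0.0732) or replicate 3 of *Il18*-/- (adjusted p 0.0673).

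*Fam55d* (now *Nxpe4*) belongs to the family of neurexophilin and PC-esterase domain proteins. It read -2.45, -2.66 and -2.41 in *Il18*+/+ and -6.54, -8.49 and -8.21 in *Il18*-/- at 6 weeks, and -2.57, -2.64 and -2.18 against -9.09, -8.51 and -9.32 at 12 weeks. It was well above background on every *Il18*+/+ array and on no *Il18*-/- array. It was not checked here, for this or any other probe, whether the probe sequence differs between the mice compared. It was at least 16.7-fold lower in *Il18*-/- at 6 weeks (adjusted p 5.71e-05) and at least 20.1-fold lower at 12 weeks (adjusted p 6.99e-06), and with slide as a block the adjusted p was 0.000283 and 0.0117. The other tested gene of the family, *Fam55b* (now *Nxpe2*), was lower by -1.50 and -1.19 without passing (adjusted p 0.354 and 0.209).

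A pair of overlapping probes on the telomeric side, described in the files as DIX domain containing 1, were lower in *Il18*-/-. ENSMUST00000117093 read -3.45, -3.51 and -3.95 in *Il18*+/+ and -6.73, -8.64 and -8.99 in *Il18*-/- at 6 weeks, and -4.63, -4.73 and -4.55 against -8.61, -8.56 and -9.0 at 12 weeks. No *Il18*-/- array was well above background. It was at least 7.63-fold lower at 6 weeks (adjusted p 0.000365) and at least 4.46-fold lower at 12 weeks (adjusted p 0.000748), and ENSMUST00000098784 was at least 9.01-fold lower (adjusted p 0.00298) and at least 5.71-fold lower (adjusted p 0.00681). The 12-week call of the latter ended without a filter on dim probes (adjusted p 0.0556). These probes share 52 bases and count as 1 target. A probe named *Dixdc1*, for the same Wnt signaling protein, lies at chr9:50490139-50490198 and was singled out after its values were seen. It did not pass at 6 weeks (-1.09, adjusted p 0.42) or at 12 weeks (-0.35, adjusted p 0.682).

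*Abcg4*, an ATP-binding cassette transporter of sterols, also has a pair of overlapping probes that share 44 bases. The brighter read -3.95, -3.90 and -3.42 in *Il18*+/+ and -4.82, -6.05 and -5.80 in *Il18*-/- at 6 weeks, and -4.51, -4.78 and -4.49 against -6.15, -5.84 and -6.13 at 12 weeks. All *Il18*-/- arrays were lower at both ages. The difference was -1.79 ± 0.28 (SE) at 6 weeks (adjusted p 0.0117) and -1.45 ± 0.28 at 12 weeks (adjusted p 0.0123). The other probe gave -1.70 at 6 weeks (adjusted p 0.0192), with 1 of 3 *Il18*-/- arrays well above background, and was at least 2.18-fold lower at 12 weeks (adjusted p 0.00421), with none. After normexp background correction the 12-week difference of the brighter probe was -0.61 (adjusted p 0.0536). Its calls also ended without replicate 3 of *Il18*+/+ of the age compared (adjusted p 0.0681 at 6 weeks and 0.0614 at 12 weeks).

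The first 30 bases of both pairs are shown 5′ to 3′ because each pair reads nearly the same stretch of RNA, and the capitals mark the bases that the probes of a pair share. The *Abcg4* probes lie at chr9:44081286-44081345 and chr9:44081302-44081361, and the other pair at chr9:50518776-50518835 and chr9:50518784-50518843, all on the minus strand.
Abcg4 at 44081286: TCTTCTCATTACACAGAGACCAGTTGTATT
Abcg4 at 44081302: tgtatctgccccaggtTCTTCTCATTACAC
ENSMUST00000117093: CGGGAAATACCTAAAAGTACTTGCCCTGGT
ENSMUST00000098784: aacagcgtCGGGAAATACCTAAAAGTACTT

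The probes of *Gldn* (chr9:54189513-54189572), *Scn2b* (chr9:44937945-44938004) and *Fam55d* (chr9:48207362-48207421), all on the plus strand, are shown because they alone passed at both ages with slide as a block. These are again the first 30 of 60 bases, and no base is marked.
Gldn: ccatcagtaaccacagattctaaacgacca
Scn2b: gttctttatgctttttaggggagaacccag
Fam55d: ttttttattagagccacattgctctttgcc

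*Ppcdc*, an enzyme of coenzyme A synthesis, is the same-direction member farthest from *Il18*. It read -6.36, -5.72 and -5.96 in *Il18*+/+ and -8.05, -8.65 and -8.95 in *Il18*-/- at 6 weeks, and -6.36, -5.93 and -6.73, with 2 of 3 arrays well above background, against -8.78, -8.57 and -8.97 at 12 weeks. No *Il18*-/- array was well above background, and the genotypes did not overlap. It was at least 1.47-fold lower at 6 weeks (adjusted p 0.000693) and at least 1.37-fold lower at 12 weeks (adjusted p 0.000923). After normexp background correction it passed at neither age (-0.42, adjusted p 0.523, and -0.53, adjusted p 0.104).

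*Rps25*, a protein of the small ribosomal subunit, showed a difference between its probes. The dimmer, at chr9:44218247-44218306, read -4.95, -4.50 and -4.72 in *Il18*+/+ and -5.63, -5.99 and -5.52 in *Il18*-/- at 6 weeks, and -4.57, -4.34 and -4.29 against -5.81, -6.03 and -6.12 at 12 weeks. It was lower on every *Il18*-/- array, by -0.99 ± 0.19 (SE, adjusted p 0.0362) and -1.59 ± 0.19 (adjusted p 0.00135). The 6-week call held on leaving out replicate 1 of either *Il18*-/- group or replicate 2 of *Il18*-/- at 12 weeks, and ended on leaving out any other single array, with an adjusted p up to 0.194. After normexp background correction the 6-week difference was -0.46 (adjusted p 0.412). The brighter probe of the gene passed at neither age (-0.03, adjusted p 0.97, and -0.30, adjusted p 0.326).

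ENSMUST00000050829, a probe for *2010007H06Rik* by its description, read -0.89, -0.59 and -0.61 in *Il18*+/+ and -1.77, -1.84 and -1.65 in *Il18*-/- at 6 weeks. At 12 weeks it read -0.58, -0.79 and -0.45 against -1.52, -2.24 and -2.28, so that all *Il18*-/- arrays were lower. The difference was -1.06 ± 0.21 (SE) at 6 weeks (adjusted p 0.048) and -1.41 ± 0.21 at 12 weeks (adjusted p 0.00441). The 6-week call held only without replicate 1 or 2 of *Il18*-/- at 12 weeks, and ended on leaving out any other single array, with an adjusted p up to 0.21. The probe that carries that gene name, taken up after its values were seen, fell at 12 weeks (-1.05, adjusted p 0.0238) and missed the threshold at 6 weeks (-0.84, adjusted p 0.179).

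The 14 same-direction probes had a median GC content of 40.8%, against 43.3% in the other 263 tested members, and 7 lie on each strand. Their median distance from *Il18* was 5.46 Mb, against 5.67 Mb for the others. In 6 of the 14 at least 1 group had no array well above background. Without a filter on dim probes 5 of the 14 passed at both ages. The 6-week call then ended for *Tmem25*, *Ttc36*, *Rps25* and ENSMUST00000050829 (adjusted p 0.128, 0.134, 0.197 and 0.237). The 12-week call ended for *Amica1* and *2900052N01Rik* (adjusted p 0.172 and 0.0711). Both calls of the brighter *Abcg4* probe ended (adjusted p 0.0968 at 6 weeks and 0.0754 at 12 weeks).

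The genotype difference itself differed between the ages, by limma's interaction test, in 9 members (2.0% of all tested probes), 1 of them more positive at 12 weeks and 8 more negative. This split was 4 and 9, 5 and 7, and 4 and 9 under the 3 other scalings in the order given above. The median of this difference was -0.33 in the region and -0.36 over all tested probes. The count was 2, 2 and 4 without replicate 1, 2 or 3 of *Il18*+/+ at 6 weeks, 18 without replicate 2 of *Il18*-/- at 6 weeks, 5 and 2 without replicate 1 or 3 of *Il18*+/+ at 12 weeks, and 3 and 2 without replicate 2 or 3 of *Il18*-/- at 12 weeks. Without the arrays with the most spots well above background it was 4. With slide as a block no member passed limma, and 33 had an unadjusted p under 0.05. The difference went from 2.45 to 2.40 for *Gldn*, from -1.15 to -1.22 for *Scamp5* and from -1.54 to -1.43 for *Oaf*. It shrank in others, as from -1.75 to -1.18 for *Mcam* and from -1.70 to -1.07 for *Arhgap20*.

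*Gldn* was the member with the more positive difference (2.45, adjusted p 0.0201). ENSMUST00000098676, a predicted gene by its description, did not differ at 6 weeks (-0.17, adjusted p 0.822) and at 12 weeks read -0.84, -1.04 and -0.95 in *Il18*+/+ and -3.17, -3.29 and -3.23 in *Il18*-/-. It was 4.88-fold lower at 12 weeks (log2 -2.29 ± 0.22, SE, adjusted p 0.000409) and its change between the ages was -2.11 (adjusted p 0.00743). These calls, and those of *Gldn*, held on leaving out any single array, but with slide as a block its 12-week difference was -1.58 (adjusted p 0.257).

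*Acsbg1* activates long-chain fatty acids by joining them to coenzyme A. It read -6.40, -6.37 and -5.99 in *Il18*+/+ and -4.16, -4.46 and -4.84 in *Il18*-/- at 6 weeks, and -4.81, -5.04 and -4.78 against -4.60, -4.63 and -4.72 at 12 weeks. The gap between genotypes was wide at 6 weeks and narrow at 12 weeks, when the *Il18*+/+ arrays were higher than before. All *Il18*-/- arrays lay above all *Il18*+/+ arrays at both ages. *Acsbg1* was 3.4-fold higher in *Il18*-/- at 6 weeks (log2 1.77 ± 0.20, SE, adjusted p 0.00108). At 12 weeks the difference was 0.22 ± 0.20 (adjusted p 0.486), or 0.75 with slide as a block. The difference between the ages was -1.54 (adjusted p 0.0187) and ended without replicate 1 or 2 of *Il18*+/+ at 6 weeks (adjusted p 0.0627 and 0.0583), replicate 3 of *Il18*+/+ at 12 weeks (0.0536) or replicate 3 of *Il18*-/- at 12 weeks (0.0517). After normexp background correction the 6-week difference was 0.64 (adjusted p 0.103) and that between the ages -0.47 (adjusted p 0.389), and after quantile normalization the latter was -0.91 (adjusted p 0.053).

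*Mcam*, an adhesion molecule of vessel walls, and *Arhgap20* passed at 12 weeks and between the ages. The *Mcam* probe at chr9:43949385-43949444 differed by 0.63 at 6 weeks and -1.13 at 12 weeks (adjusted p 0.0247), and by -1.75 between the ages (adjusted p 0.0347). Its 12-week call ended without any 1 of the arrays of that age, with an adjusted p up to 0.101, and its call between the ages ended without any 1 of those arrays or of the 6-week *Il18*+/+ arrays, with an adjusted p up to 0.0941. The 12-week difference was -0.26 with slide as a block (adjusted p 0.999). The brighter *Mcam* probe did not pass at 12 weeks (-0.50, adjusted p 0.175).

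*Arhgap20* differed by 0.69 at 6 weeks and -1.01 at 12 weeks (adjusted p 0.0408), and by -1.70 between the ages (adjusted p 0.0447). Its 12-week call held only without a 6-week *Il18*-/- array, replicate 2 of *Il18*+/+ at 12 weeks or replicate 1 of *Il18*-/- at 12 weeks, and otherwise ended with an adjusted p up to 0.144. The 12-week difference was -0.07 with slide as a block (adjusted p 0.999), and the call ended under the 3 other scalings (adjusted p 0.0727, 0.0902 and 0.0787), which also ended the call between the ages. Its call between the ages held only without replicate 3 of *Il18*-/- at 6 weeks or replicate 2 of *Il18*+/+ at 12 weeks, and otherwise ended with an adjusted p up to 0.117.

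The difference of *Scn2b* between the ages was -1.74 (adjusted p 0.0227). It rests on *Il18*+/+ signals that were not well above background and was -0.08 after normexp background correction (adjusted p 0.886). It also ended without replicate 1 or 2 of *Il18*+/+ at 6 weeks (adjusted p 0.0697 and 0.0656), replicate 3 of *Il18*+/+ at 12 weeks (0.0522), or replicate 2 or 3 of *Il18*-/- at 12 weeks (0.0548 and 0.0643).

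*Oaf* and *Scamp5*, a secretory carrier membrane protein, passed between the ages only. *Oaf* read -0.86, -0.74 and -1.14 in *Il18*+/+ and 0.46, -0.39 and -0.14 in *Il18*-/- at 6 weeks, and 0.22, -0.08 and 0.13 against -0.33, -0.67 and -0.68 at 12 weeks. In both genes the *Il18*-/- arrays all lay higher than the *Il18*+/+ arrays at 6 weeks and lower at 12 weeks. The difference between the ages was -1.54 for *Oaf* (adjusted p 0.0314) and -1.15 for *Scamp5* (adjusted p 0.0398), and neither passed at an age. The *Oaf* call held only without any 1 of the 6-week *Il18*-/- arrays, replicate 2 of *Il18*+/+ at 12 weeks or replicate 1 of *Il18*-/- at 12 weeks, and otherwise ended with an adjusted p up to 0.084. The *Scamp5* call held only without replicate 2 of *Il18*-/- at 6 weeks or replicate 1 of *Il18*-/- at 12 weeks, and otherwise ended with an adjusted p up to 0.125. It also ended under the 3 other scalings (-0.79, -0.57 and -0.77, adjusted p 0.0564, 0.261 and 0.0609) and after normexp background correction (-0.61, adjusted p 0.249).

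The mean of the 2 genotype differences passed in 31 members (2.24% of all tested probes), 10 higher and 21 lower in *Il18*-/-, a split that was 32 and 48, 33 and 43, and 33 and 43 under the 3 other scalings. It passed in 19 and 20 members without replicate 2 or 3 of *Il18*+/+ at 6 weeks, 74 without replicate 1 of *Il18*-/- at 6 weeks, 20 without replicate 3 of *Il18*+/+ at 12 weeks and 19 without replicate 3 of *Il18*-/- at 12 weeks. Without the arrays with the most spots well above background it passed in 60, and with slide as a block in 4.

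*Hspa8*, *Cd3e*, *Il10ra*, *Nrg4*, *Tagln*, *Oaf* and *Scamp5* were singled out after their values were seen. Every 12-week call in the role lists ended with slide as a block, save for *Gldn*, *Scn2b* and *Fam55d*. The difference went from -1.64 to -1.79 for *Sorl1*, from -0.74 to -0.78 for *H2afx*, from -0.82 to -1.11 for *Nrg4* and from -0.73 to -0.63 for *Cd3e*. Over all tested probes 0.379% were higher and 0.188% lower at 6 weeks, and 0.63% higher and 8.05% lower at 12 weeks. By role, the genes of mitochondrial and energy metabolism were the largest group, with 18 genes tested, each by its brightest probe. At 6 weeks 2 of the 18 rose and at 12 weeks 1 fell, *Nnmt*, with a median difference of 0.01 and -0.11 against 0.11 and -0.26 over all tested probes.

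*Nnmt* methylates nicotinamide and is active in adipose tissue. At 12 weeks it read 0.72, 0.72 and 0.87 in *Il18*+/+ and -1.63, -1.14 and -1.22 in *Il18*-/-, and at 6 weeks -0.62, 0.15 and 0.13 against -0.66, -0.87 and -1.37. The genotypes did not overlap at either age. It was 4.3-fold lower at 12 weeks (log2 -2.10 ± 0.25, SE, adjusted p 0.00135) with -0.85 ± 0.25 at 6 weeks (adjusted p 0.183), and the ages did not differ past the threshold (adjusted p 0.0851). With slide as a block the 12-week difference was -1.49 (adjusted p 0.545).

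None of the 5 chaperones and heat shock proteins passed limma at either age by its brightest probe, with 2 at an unadjusted p under 0.05 at 6 weeks and 1 at 12 weeks, and a median of 0.30 and -0.21. *Hyou1*, a chaperone of the endoplasmic reticulum, differed by 0.83 at 6 weeks (adjusted p 0.185). *Cryab*, a small heat shock protein, differed by -0.57 at 12 weeks (adjusted p 0.312). With slide as a block that difference was 0.67, a shift that rests on 1 array. This was replicate 3 of *Il18*-/- at 6 weeks, which read 1.14 against 2.15 and 2.60 in the rest of its group. *Hspa8* encodes the constitutive Hsc70 chaperone, and its dimmest probe, at chr9:40611142-40611201, read 1.04, 0.86 and 1.13 in *Il18*+/+ and 2.50, 2.02 and 2.12 in *Il18*-/- at 6 weeks. That probe was higher on every *Il18*-/- array at 6 weeks (1.20 ± 0.21, SE, adjusted p 0.0202) and overlapped at 12 weeks (-0.03). Its call ended without replicate 1, 2 or 3 of *Il18*+/+ at 6 weeks (adjusted p 0.0818, 0.109 and 0.0755). The brightest *Hspa8* probe did not pass (0.60, adjusted p 0.223). The third, at chr9:40612755-40613050, passed between the ages (-1.12, adjusted p 0.0464), which held only without replicate 2 or 3 of *Il18*-/- at 6 weeks and otherwise ended with an adjusted p up to 0.131.

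Of 5 ion channel and receptor genes tested, *Scn2b* rose at both ages and the other 4 did not pass, with a median of 0.13 and -0.13. Of 12 genes listed, 7 were too dim to test. Among 11 adhesion and neurite genes *Gldn* rose at both ages and *Ncam1* fell at 12 weeks, with a median of 0.20 and -0.32. *Ncam1*, the neural cell adhesion molecule, read -4.60, -3.30 and -4.25 in *Il18*+/+ and -5.27, -5.20 and -5.33 in *Il18*-/- at 12 weeks. It was lower on all *Il18*-/- arrays of that age (-1.22 ± 0.29, SE, adjusted p 0.0278) and overlapped at 6 weeks (0.43). That call ended without replicate 2 or 3 of *Il18*+/+ at 12 weeks (adjusted p 0.07 and 0.0788) or replicate 1, 2 or 3 of *Il18*-/- at 12 weeks (0.0513, 0.0774 and 0.0861), and under 3 other scalings and normexp background correction. The difference was -0.70 with slide as a block (adjusted p 0.999). The dimmer *Ncam1* probe did not pass (-0.88, adjusted p 0.178).

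Of 8 T cell and leukocyte genes, *Amica1* rose at both ages, and *Cd3e* and *Il10ra* fell at 12 weeks, with a median of 0.33 at 6 weeks and -0.73 at 12 weeks. *Cd3e*, a subunit of the T cell receptor complex, read -1.47, -1.29 and -1.11 in *Il18*+/+ and -1.83, -2.04 and -2.18 in *Il18*-/- at 12 weeks. *Il10ra*, a chain of the interleukin-10 receptor, read -3.24, -3.55 and -2.87 against -4.81, -4.03 and -4.64. Neither overlapped at 12 weeks, with a difference of -0.73 ± 0.18 (SE, adjusted p 0.0305) for *Cd3e* and -1.28 ± 0.30 (adjusted p 0.0257) for *Il10ra*. The difference of *Il10ra* was -0.70 with slide as a block (adjusted p 0.999). In bulk tissue fewer cells of a type and less RNA per cell cannot be told apart. *Cd3e* no longer passed without replicate 2 of *Il18*+/+ at 6 weeks, replicate 2 or 3 of *Il18*+/+ at 12 weeks, or replicate 2 or 3 of *Il18*-/- at 12 weeks (adjusted p up to 0.133), and *Il10ra* without replicate 1 or 3 of either genotype at 12 weeks (adjusted p up to 0.121). *Pstpip1*, a cytoskeletal adaptor of leukocytes, was at least 2.57-fold lower at 12 weeks without passing (adjusted p 0.299), and with slide as a block it differed by 0.04 (adjusted p 0.999).

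A list of lymphocyte markers, which shares *Cd3d*, *Cd3e* and *Cd3g* with these genes, was looked at beside them, and its part in the result was not tested. *Cd3e* and *Cd79a* fell at 12 weeks among 8 tested (8.05% of all tested probes fell). All 8 differences were negative at that age, with a median of -0.65, against -0.26 over all tested probes, and the median at 6 weeks was 0.09. The summed intensity, in units of the 75th percentile, was 1.07, 1.03 and 1.46 in *Il18*+/+ and 0.686, 0.773 and 0.74 in *Il18*-/- at 12 weeks, and 0.927, 0.843 and 0.887 against 1.27, 0.687 and 0.784 at 6 weeks. The brightest probe was that of *Cd3e*, and *Ms4a1* was too dim to test. None of the 8 passed limma at 6 weeks, with 0 at an unadjusted p under 0.05.

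Of 13 genes of the ubiquitin pathway, *Usp2* fell at 6 weeks (0.188% of all tested probes) and *Cbl* at 12 weeks (8.05% of all), with a median of 0.17 and -0.09. *Usp2*, a deubiquitinating enzyme, read 0.52, -0.03 and 0.51 in *Il18*+/+ and -0.88, -1.29 and -1.14 in *Il18*-/- at 6 weeks. It was lower on all *Il18*-/- arrays (-1.43 ± 0.23, SE, adjusted p 0.0132), and at 12 weeks by -0.53 ± 0.23 (adjusted p 0.153), a difference between ages that did not pass (adjusted p 0.143). The 6-week call ended without replicate 1 or 3 of *Il18*+/+ (adjusted p 0.0716 and 0.0828). *Cbl*, a ubiquitin ligase, differed by -0.65 ± 0.17 at 12 weeks (adjusted p 0.0356), which held only without a 6-week *Il18*-/- array or replicate 2 of *Il18*+/+ at 6 weeks and otherwise ended with an adjusted p up to 0.115, and under the 3 other scalings and normexp. It was -0.42 with slide as a block (adjusted p 0.999).

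Among 7 genes of DNA damage and chromatin, *Atm* and *H2afx* (now *H2ax*) fell at 12 weeks, with a median of 0.11 and -0.08, and none passed limma at 6 weeks, with 3 at an unadjusted p under 0.05. *Atm*, a kinase that signals DNA breaks, differed by -1.13 ± 0.28 (SE, adjusted p 0.0287), with a dimmer probe that did not pass (-0.56, adjusted p 0.357). The brighter gave -0.50 with slide as a block (adjusted p 0.999). *H2afx*, the histone that this kinase marks, was lower on all *Il18*-/- arrays at both ages, by -0.69 ± 0.20 at 6 weeks (adjusted p 0.175) and -0.74 ± 0.20 at 12 weeks (adjusted p 0.0398). *Atm* no longer passed without replicate 1 or 3 of *Il18*+/+ or replicate 2 or 3 of *Il18*-/- at 12 weeks (adjusted p up to 0.133), and *H2afx* without any *Il18*+/+ array or any *Il18*-/- array of 12 weeks (adjusted p up to 0.171).

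Of 11 membrane traffic genes *Sorl1*, a sorting receptor of endosomes, fell at 12 weeks (8.05% of all tested probes), with a median of 0.08 and -0.42, and none passed limma at 6 weeks, with 2 at an unadjusted p under 0.05. It read -0.90, -0.12 and -0.58 in *Il18*+/+ and -1.21, -2.93 and -2.37 in *Il18*-/- at 12 weeks, and -0.24, -0.69 and -1.09 against -1.63, -2.36 and -1.84 at 6 weeks. The genotypes did not overlap at either age. The difference was -1.64 ± 0.38 (SE, adjusted p 0.0256) at 12 weeks and -1.27 ± 0.38 (adjusted p 0.208) at 6 weeks, and a dimmer probe also passed at 12 weeks (-1.70, adjusted p 0.0275). The call of the brighter ended without replicate 2 or 3 of *Il18*+/+ (adjusted p 0.0755 and 0.0966) or of *Il18*-/- (0.0959 and 0.0847) at 12 weeks.

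Of 7 muscle and adipose regulators *Nrg4* and *Tagln* fell at 12 weeks, with a median of -0.12 and -0.48, and none passed limma at 6 weeks, with 2 at an unadjusted p under 0.05. *Nrg4*, a growth factor that brown fat secretes, read 2.71, 3.12 and 3.1 in *Il18*+/+ and 2.37, 1.93 and 2.17 in *Il18*-/- at 12 weeks. It was lower on all *Il18*-/- arrays of that age (-0.82 ± 0.19, SE, adjusted p 0.0263), and the call ended without replicate 2 or 3 of *Il18*+/+ (adjusted p 0.0789 and 0.113) or of *Il18*-/- (0.0965 and 0.0826) at 12 weeks. The dimmest *Nrg4* probe also passed (-0.78, adjusted p 0.045), and the third did not (0.26, adjusted p 0.365). *Tagln*, an actin-binding protein of smooth muscle, differed by -0.75 ± 0.21 (adjusted p 0.0475), which held only on leaving out a 6-week *Il18*-/- array, ended otherwise with an adjusted p up to 0.193, and ended after quantile normalization or centring on the median. It was -0.18 with slide as a block (adjusted p 0.999). *Sln*, a muscle inhibitor of calcium pumps, differed by -1.65 and -1.79 with a wide spread and did not pass (adjusted p 0.61 and 0.31). With slide as a block its 12-week difference was 1.56, a shift that rests on 1 array. This was replicate 3 of *Il18*-/- at 6 weeks, which read -5.64 against -3.95 and -0.61 in the rest of its group. *Cyp1a1*, the only tested cytochrome P450 of 4 listed, did not pass either (-0.01, adjusted p 0.998, and -1.61, adjusted p 0.0822).

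The labelled tissue was checked on marker lists. With slide as a block 14 of all 28748 tested probes passed at 12 weeks (0.0487%). The 12-week calls of *Cd79a* and of the markers below are given without that block. The brown adipocyte markers were all tested, and the *Cidea* probe was the brightest. At 12 weeks 2 of 8 fell, *Ucp1* (-0.79, adjusted p 0.0422) and *Ppara* (-0.78, adjusted p 0.0332), against 8.05% of all tested probes. The median was 0.00 at 6 weeks and -0.16 at 12 weeks. Of 6 general adipocyte markers, with the *Fabp4* probe the brightest, *Lpl* fell at 12 weeks (-0.57, adjusted p 0.0447, against 8.05% of all), with a median of -0.06 and -0.42. Of 6 tested macrophage markers the *Csf1r* probe was the brightest, and *Adgre1* was read by the probe with its older name *Emr1*. None of the 6 passed limma at either age, with 0 at an unadjusted p under 0.05 at 6 weeks and 1 at 12 weeks. Their median was 0.24 and -0.38. None of the brown adipocyte or adipocyte markers passed at 6 weeks, with 0 at an unadjusted p under 0.05 in each list.

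Markers of Schwann cells and nerve were looked at beside *Gldn* and *Scn2b*, and their part was not tested. None of the 7 passed limma at either age, with 1 at an unadjusted p under 0.05 at 6 weeks and 2 at 12 weeks, and the median was -0.18 and -0.36. Their summed intensity, led by *S100b*, was 14.8, 15.7 and 14.4 in *Il18*+/+ and 16.1, 11.6 and 12.2 in *Il18*-/- at 6 weeks, and 13.0, 11.8 and 17.7 against 15.9, 13.0 and 15.9 at 12 weeks. The genotypes overlapped in this sum at both ages.

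Skeletal muscle markers were lower at 12 weeks on all *Il18*-/- arrays than on all *Il18*+/+ arrays in 10 of 10 genes (36.1% of all tested probes did not overlap), though none passed limma at either age, with 0 at an unadjusted p under 0.05 at 6 weeks and 3 at 12 weeks. The median was -0.29 at 6 weeks and -1.19 at 12 weeks, against 0.11 and -0.26 over all tested probes, and the *Tnni2* probe was the brightest. The summed intensity was 200.2, 128.1 and 121.0 in *Il18*+/+ and 96.7, 82.2 and 36.5 in *Il18*-/- at 12 weeks, and 52.2, 80.9 and 115.2 against 64.4, 161.5 and 28.98 at 6 weeks. Their part in the values of *Sln* was not tested.

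Liver markers had a median of 3.06 at 6 weeks and -0.12 at 12 weeks over 9 tested genes, with *Apob* too dim to test. None passed limma at 6 weeks, with 6 at an unadjusted p under 0.05, and at 12 weeks *Trf* and *Cyp2e1* fell (8.05% of all tested probes). The summed intensity, led by *Hp*, which fat also makes, was 123.6, 101.5 and 135.4 in *Il18*+/+ and 138.1, 101.6 and 105.2 in *Il18*-/- at 6 weeks, and 135.2, 120.0 and 132.2 against 104.6, 84.5 and 100.02 at 12 weeks. This sum hides *Alb*, *Ahsg*, *Fgb*, *Ttr* and *Serpina1a*, which were higher on all *Il18*-/- arrays of 6 weeks and, at 12 weeks, on replicate 1 of *Il18*-/- alone. *Alb* read -4.19, -7.45 and -5.76 in *Il18*+/+ and -2.11, -1.97 and -1.96 in *Il18*-/- at 6 weeks, and -6.20, -7.37 and -6.08 against -1.99, -6.47 and -8.36 at 12 weeks. Their part in the values of the region was not tested.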

How the data were processed

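Each of the 12 deposited scanner files holds spot intensities that Agilent Feature Extraction 10.7.3.1 computed per the file headers, with background taken off and spatial trends removed within each array. The authors also deposited a series table of the same intensities, rounded and not log2, used only as an alternative. Here log2 of the processed signal was taken relative to the 75th percentile of spots well above background on each array, and spots of a probe were averaged without outlier spots. Probes well above background on all 3 arrays of a group (at least 50% of spots) were tested with limma 3.58.1 in R 4.3.3, in 1 model of 4 groups, with p adjusted over all 28748 tested probes (Benjamini-Hochberg, 0.05). The fit was tested on simulated data of independent normal values, which held no shift between slides or in scaling.

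The members and lists were chosen with earlier results of these data known. Genes were named if they passed at both ages in 1 direction, were among the 5 largest changes per direction at an age, were among the 5 largest differences between the ages, were among the 5 nearest to *Il18* on each side, or had the largest change of a role list. Probes chosen after their values were seen are named as such. Some genes of the region are not reported here. Alternatives were other scalings, background corrections, filters, blocks, units and windows, and leaving out arrays.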

Additional observations from a re-analysis of the deposited data

Results flagged for a closer look

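The genotype difference itself differed between the ages in 9 of 277 tested probes of the region (2.0% of all tested probes), by limma's interaction test. The difference at 12 weeks minus that at 6 weeks was 2.45 for *Gldn* (adjusted p 0.0201), -2.11 for ENSMUST00000098676 (adjusted p 0.00743) and -1.54 for *Acsbg1* (adjusted p 0.0187). It was -1.75 for *Mcam* (adjusted p 0.0347), -1.74 for *Scn2b* (adjusted p 0.0227), -1.70 for *Arhgap20* (adjusted p 0.0447) and -1.54 for *Oaf* (adjusted p 0.0314). It was -1.15 for *Scamp5* (adjusted p 0.0398) and -1.12 for the *Hspa8* probe at chr9:40612755-40613050 (adjusted p 0.0464). The value for *Scn2b* rests on *Il18*+/+ signals that were not well above background, and after normexp background correction it was -0.08 (adjusted p 0.886). None of the 9 passed with slide as a block in limma, where 33 members had an unadjusted p under 0.05. The difference with the block was 2.40 for *Gldn*, -1.22 for *Scamp5*, -1.43 for *Oaf* and -1.04 for that *Hspa8* probe. It was smaller for the rest, -1.64 for ENSMUST00000098676, -1.37 for *Scn2b*, -1.19 for *Acsbg1*, -1.18 for *Mcam* and -1.07 for *Arhgap20*.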

How the results depend on the processing

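Counts are given in the order 6 weeks, 12 weeks, same direction at both ages, difference between the ages, and mean of both ages, with 18, 46, 14, 9 and 31 as reported. With the 75th percentile of all spots they were 35, 67, 23, 13 and 80, with quantile normalization 38, 66, 29, 12 and 76, and with each array centred on its median 37, 70, 25, 13 and 76. Over all tested probes the first 3 of these counts were 163, 2494 and 27 as reported. In the same order of scalings they were 935, 5166 and 209, then 1050, 4758 and 238, then 901, 5338 and 215. The cause was not tested. Without a filter, limma was fitted to the dim probes as well. This changes its shared estimate of the spread, and p is adjusted over more probes. The counts of the region were then 9, 13, 5, 0 and 17, with 64 probes at an unadjusted p under 0.05 for the 0 in limma. Which of these changes lowered the counts was not tested. Among probes well above background on every array, which tests fewer probes and none that is dim in a group, the same-direction count was 7. With slide as a block they were 12, 3, 3, 0 and 4, with 33 at an unadjusted p under 0.05 for the 0 in limma, and the block takes in most of the 12-week comparison. The ratio criterion without a test gave 31 for the difference between the ages. The window of 5 Mb on each side holds fewer probes and gave 7, 20, 6, 3 and 16.

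After subtraction of group means, arrays of the same replicate number correlated between -0.3038 and 0.2362. Arrays of different numbers correlated between -0.2522 and 0.3209. No pairing by replicate number was modelled, and these values do not settle whether the mice were paired. With the replicate number as a block the counts were 16, 41, 11, 7 and 30.

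Leaving out each array in turn gave 9 to 22 at 6 weeks, with 11, 11 and 9 without *Il18*+/+ 6-week replicate 1, 2 or 3. It gave 16 to 75 at 12 weeks, with 75 without *Il18*-/- 6-week replicate 1, 29, 24 and 16 without *Il18*+/+ 12-week replicate 1, 2 or 3, and 19 and 16 without *Il18*-/- 12-week replicate 2 or 3. It gave 7 to 13 for the same direction, with 9, 8 and 7 without *Il18*+/+ 6-week replicate 1, 2 or 3 and 8 without *Il18*-/- 6-week replicate 3. For the difference between the ages it gave 2 to 18, with 2, 2 and 4 without *Il18*+/+ 6-week replicate 1, 2 or 3, 18 without *Il18*-/- 6-week replicate 2, 5 and 2 without *Il18*+/+ 12-week replicate 1 or 3, and 3 and 2 without *Il18*-/- 12-week replicate 2 or 3. For the mean it gave 19 to 74, with 74 without *Il18*-/- 6-week replicate 1, 19 and 20 without *Il18*+/+ 6-week replicate 2 or 3, 20 without *Il18*+/+ 12-week replicate 3 and 19 without *Il18*-/- 12-week replicate 3. Fewer arrays give a wider error, and the cause of the rises was not tested.

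The other planned settings, normexp background correction among them, kept every count within 1.5 times. Chosen after seeing the data were averaging of spots before taking log2, overlapping probes counted once, outlier spots left out of the percentile, and leaving out the arrays with the most spots well above background. The percentile reference was settled after the calls of 2 of these alternatives had been seen. Leaving out those 2 arrays gave 16, 40, 12, 4 and 60, and the cause was not tested.

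Of the calls of the 47 probes followed through the settings, 7 of 17 at 6 weeks, 3 of 26 at 12 weeks and 0 of 9 between the ages held under every setting in which they were tested, and slide as a block ended 5, 23 and 9. No probe among them that passed turned its direction. Signal over background limits the fold of probes silent in a group to a lower bound, and 139 members were too dim to test.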
